A study of Mus musculus with 64 samples.

Results

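Autophagy genes were described in microglia over day and night, as 40 named members chosen by their part in the pathway, with earlier results of these data known. The members were found by symbol among the 49671 genes of the count table, with 16 genes of initiation, 16 of conjugation, 5 cargo receptors and 3 transcription factors. Counts came from 64 libraries of total RNA from microglia of adult male C57BL/6 mice (C57BL6/N in the methods of the study), split evenly between hippocampus and frontal cortex (32 each). Each library is labelled day or night and Soci, Cogn, Ctr0 or Ctr1, which gives 16 groups of 4. No allele or agent beyond these names is labelled, and what the 4 condition names stand for is not given there. The study sampled these microglia at ZT4, in the light phase, and at ZT16, in the dark phase, from mice kept under reversed lights. The labels call the phases day and night without giving these times, and day and night are used here as the labels have them. Cells were dissociated in the cold and picked with magnetic beads against CD11b, a surface protein that other myeloid cells also carry. Nothing in the sources used here ties a library to an animal, so p-values measure the spread between these libraries.

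Autophagy is the process by which a cell wraps its own material in a double membrane, the autophagosome, and delivers it to the lysosome. A kinase complex built on Ulk1 or Ulk2 starts it, a lipid kinase complex built on Pik3c3 marks the membrane, and Atg9a and the Atg2 proteins supply it with lipid. A pair of ubiquitin-like conjugation reactions then fixes the small proteins of the LC3 and GABARAP families to the membrane, where cargo receptors such as Sqstm1 bind them. Tfeb, Tfe3 and Mitf are related transcription factors that switch on lysosomal and autophagy genes. In microglia the pathway is known for handling engulfed and aggregated material.

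Every one of the 40 members passed the filter on low counts in every comparison, and the lowest count of a member in any library was 22. Total counts ran from 11.6 to 84.5 M in the hippocampus and from 10.2 to 26.3 M in the frontal cortex, with the 3 deepest at 62.2, 65.7 and 84.5 M, each the replicate 4 of its group. The 12 microglia markers were all detected, and their summed level lay between 11999 and 25065 CPM (counts over the TMM-scaled library size in M) in each library. Markers of other cells were also present. Those of border macrophages, the CD11b-positive macrophages of meninges and vessels, summed to between 197 and 425 CPM in day hippocampus and to between 99.6 and 220.3 CPM at night. Those of choroid plexus had a median sum of 268 CPM in day hippocampus and 1640 CPM at night. In bulk RNA of this kind, fewer cells of a type and less RNA per cell cannot be told apart.

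Levels were compared between members only per kilobase of exon, as the mean over 64 libraries. Ulk2, one of the initiating kinases, had the highest at 29.4 ± 4.13 CPM per kb (SD, n = 64). It was followed by Gabarap, a ubiquitin-like membrane tag, at 24.98 ± 3.36 CPM per kb and Sqstm1, the receptor also called p62, at 21.0 ± 2.37 CPM per kb. The spreads of Ulk2 and Gabarap overlapped, as did those of Gabarap and Sqstm1. Its relative Ulk1 stood at 6.63 ± 0.52 CPM per kb. The lowest were Atg16l2, a relative of the Atg16l1 scaffold, at 1.16 ± 0.25, the receptor Optn at 1.46 ± 0.38 and the phosphoinositide reader Wipi1 at 1.69 ± 0.29 CPM per kb, whose spreads also overlapped.

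Promoter sequences are shown for the members whose promoter window holds CACGTG, the palindromic E-box core that clock proteins and the Tfeb family are known to bind. RefSeq windows on GRCm38.p6, reaching 250 bases before and 50 after a start site, were found for 33 of the 40 members. These 33 had 41 windows, of which 4 (9.76%) held the letters CACGTG, against 7.15% of all 32851 windows of this length. The 4 windows belong to 4 members, and being a palindrome they read alike on both strands. All of the 4 belong to conjugation or to the lipid kinase complex. Atg3 (chr16:45158579-45158878, plus strand) holds the motif at 94 and again at 71 bases before its start. Atg5 (chr10:44268089-44268388, plus strand) holds it at 14 bases, Atg14 (chr14:47568385-47568684, minus strand) at 1 base and Atg7 (chr6:114670846-114671145, plus strand) at 132 bases before the start. Distances are to the first base of the motif, so the Atg14 motif runs across its start. The Atg14 and Atg7 windows lie inside the longer genes of the GENCODE annotation used for counting, at an inner RefSeq start. Capitals mark the motif, and each sequence is 5′ to 3′ on the strand of the gene.
Atg3: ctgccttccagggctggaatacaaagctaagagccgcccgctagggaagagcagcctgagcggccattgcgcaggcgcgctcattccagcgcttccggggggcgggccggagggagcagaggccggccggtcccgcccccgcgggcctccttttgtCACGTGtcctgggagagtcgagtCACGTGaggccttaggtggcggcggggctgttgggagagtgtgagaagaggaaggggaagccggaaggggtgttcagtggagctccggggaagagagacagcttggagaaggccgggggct
Atg5: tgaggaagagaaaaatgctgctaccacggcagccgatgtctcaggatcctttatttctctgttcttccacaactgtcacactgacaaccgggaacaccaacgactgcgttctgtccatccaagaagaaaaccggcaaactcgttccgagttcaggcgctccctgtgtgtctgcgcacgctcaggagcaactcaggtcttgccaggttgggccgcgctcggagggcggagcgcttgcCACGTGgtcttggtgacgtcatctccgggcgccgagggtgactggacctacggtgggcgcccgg
Atg14: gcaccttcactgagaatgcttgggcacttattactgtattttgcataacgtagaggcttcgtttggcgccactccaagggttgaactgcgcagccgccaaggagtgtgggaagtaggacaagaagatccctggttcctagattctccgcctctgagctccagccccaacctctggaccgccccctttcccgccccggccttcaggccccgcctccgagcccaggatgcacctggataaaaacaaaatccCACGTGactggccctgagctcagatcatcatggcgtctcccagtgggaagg
Atg7: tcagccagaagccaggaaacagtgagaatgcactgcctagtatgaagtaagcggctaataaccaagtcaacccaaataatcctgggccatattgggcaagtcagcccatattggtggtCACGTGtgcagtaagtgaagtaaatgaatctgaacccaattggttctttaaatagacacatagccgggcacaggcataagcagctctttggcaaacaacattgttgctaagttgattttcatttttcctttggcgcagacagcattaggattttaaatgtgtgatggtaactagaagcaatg
A match says only that these letters stand in the window. The day-night values of these genes did not share a direction: Atg3 and Atg5 were higher in day in both regions, Atg14 was higher in day in the hippocampus, and Atg7 was lower in day in the frontal cortex.

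The first question was which steps of autophagy differ between day and night within each region. In the hippocampus 20 of the 40 members differed, with 16 higher and 4 lower in day (edgeR quasi-likelihood test, adjusted p below 0.05, n = 16 per phase). That share of 50% stood beside 42.2% of all genes tested, of which 23.4% were higher and 18.8% lower. In the frontal cortex 16 members differed, 12 higher and 4 lower, a share of 40% beside 41.8% of all genes, of which 20.6% were higher and 21.3% lower. Their median log2 change was 0.08 in the hippocampus, where all genes had 0.02, and 0.05 in the frontal cortex, where all genes had -0.02. All changes were small, and the largest among the members was a fall of Map1lc3a to 0.70 of its night level. Library totals as the only scaling moved the median of all genes to -0.14 in the hippocampus and -0.09 in the frontal cortex. Then 0 members were called higher and 5 lower in the hippocampus, and 1 higher and 6 lower in the frontal cortex. All genes gave 262 higher and 4031 lower of 15527 in the hippocampus, and 653 higher and 3412 lower of 14975 in the frontal cortex. Under that scaling 6 of the 20 hippocampal calls changed sign (Atg14, Atg2b, Map1lc3b, Pik3r4, Tfe3 and Tfeb), and 0 did so relative to the median of all genes.

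**Figure D1:**
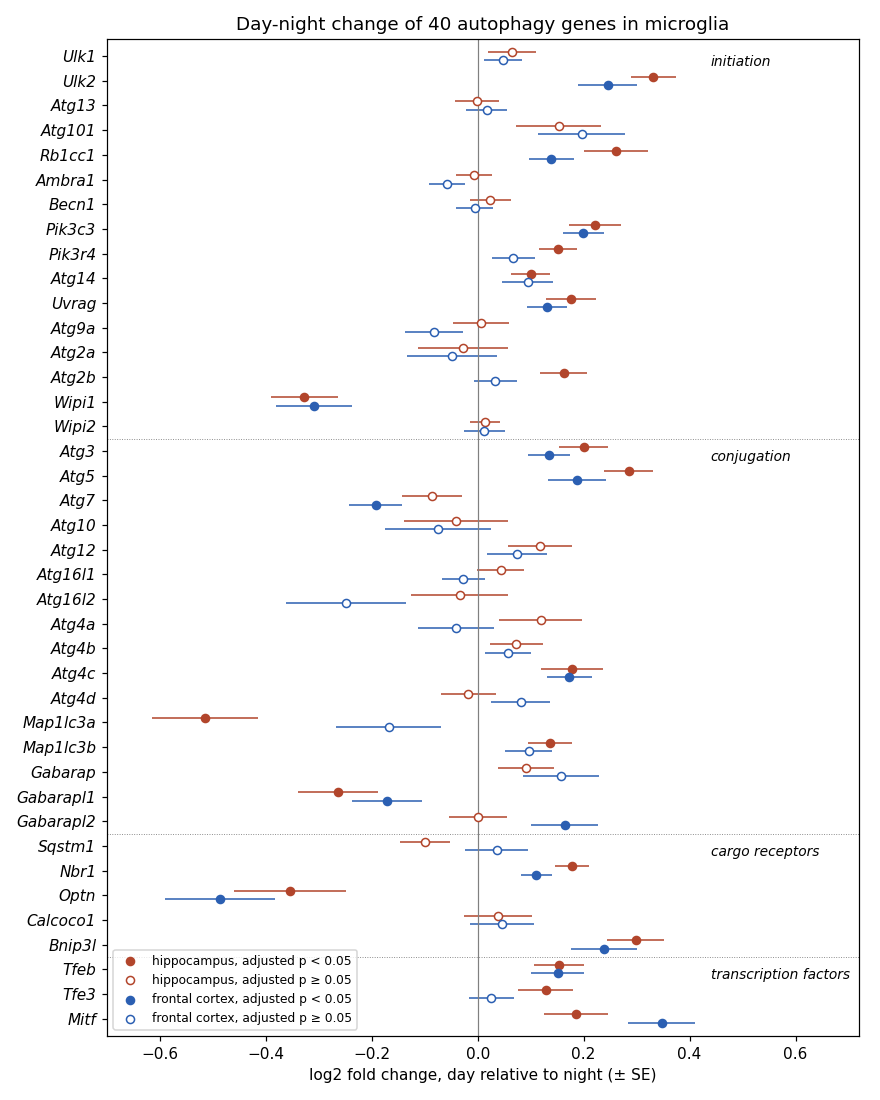
Day-night change of each of the 40 members, as log2 of day relative to night with its SE (horizontal bars), in hippocampus (red) and frontal cortex (blue), n = 16 libraries per phase and region; filled points have an adjusted p below 0.05. Ulk2, Rb1cc1, Pik3c3, Atg3, Atg5, Bnip3l and Mitf lie to the right of 0 in both regions, and Wipi1, Gabarapl1 and Optn to the left.

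A shared set of 14 members, 35% of the 40, was called in both regions and with the same sign, beside 29.3% of the 14917 genes tested in both. Higher in both were 27.5% of the members beside 17.1% of those genes, and lower in both were 3 of the 40 members beside 12.2%. The 11 that rose in day in both were the kinase-complex genes Ulk2 and Rb1cc1, the lipid kinase genes Pik3c3 and Uvrag, the conjugation genes Atg3, Atg5 and Atg4c, the receptors Nbr1 and Bnip3l, and the factors Tfeb and Mitf. The 3 that fell in both were Wipi1, Gabarapl1 and Optn. In the hippocampus alone the test called Pik3r4, Atg14, Atg2b, Map1lc3b and Tfe3 higher and Map1lc3a lower. In the frontal cortex alone it called Gabarapl2 higher and Atg7 lower. A further 18 members, Ulk1, Becn1, Atg13, Atg16l1, Gabarap and Sqstm1 among them, passed in neither region.

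Initiation held the gene with the lowest day-night p of the 40, Ulk2 in the hippocampus. In the hippocampus 7 of its 16 genes rose in day and 1 fell, and in the frontal cortex 4 rose and 1 fell. Over all genes 23.4% were higher and 18.8% lower in the hippocampus, and 20.6% and 21.3% in the frontal cortex. Ulk2 (chr11:61775649-61855073, minus strand, GRCm38) ran from 163 to 203 CPM in day hippocampus with a median of 186, and from 123 to 171 CPM at night with a median of 152. Of the 16 day libraries 14 lay above the highest night library. Its log2 change was 0.33 ± 0.04 (SE, adjusted p = 2.87e-07). In the frontal cortex Ulk2 ran from 165 to 254 CPM in day (median 197) and from 136 to 194 CPM at night (median 164). There 10 of 16 day libraries lay above every night library, and the log2 change was 0.25 ± 0.06 (SE, adjusted p = 0.000661). By group, the 8 day means of Ulk2, from 181 to 213 CPM, all lay above the 8 night means, from 149 to 179 CPM.

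Rb1cc1, the scaffold of the kinase complex also called FIP200, rose with Ulk2. It had a median of 84.9 CPM in day and 71.95 CPM at night in the hippocampus, a log2 change of 0.26 ± 0.06 (SE, adjusted p = 0.000715), and 12 of 16 night libraries lay below the lowest day library. In the frontal cortex its change was 0.14 ± 0.04 (SE, adjusted p = 0.00873). The other 4 genes grouped here with the complex were not called, which are Ulk1, Atg13, Atg101 and the Becn1 partner Ambra1. Ulk1 had log2 changes of 0.07 and 0.05 in hippocampus and frontal cortex, and Atg13, the regulatory subunit, had -0.00064 and 0.02. Atg101, which stabilizes Atg13, had 0.15 and 0.20, and in the frontal cortex it missed the threshold narrowly (adjusted p = 0.0531).

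The lipid kinase complex had 4 of 5 genes higher in day hippocampus and 2 of 5 in the frontal cortex, beside 23.4% and 20.6% of all genes. Pik3c3, the catalytic subunit known as Vps34, ran from 22.8 to 31.4 CPM in day hippocampus (median 28.03) and from 20.4 to 29.4 CPM at night (median 24.4). Its log2 change there was 0.22 ± 0.05 (SE, adjusted p = 0.000486), and in the frontal cortex it was 0.20 ± 0.04 (SE, adjusted p = 0.000136). Of its 16 cortical day libraries 9 lay above every night library. Uvrag, the subunit of the endosomal form of the complex, rose by 0.18 ± 0.05 and 0.13 ± 0.04 (SE) on the log2 scale in hippocampus and frontal cortex. Atg14, the subunit that directs the complex to autophagosomes, and Pik3r4, its regulatory kinase-like subunit, rose by 0.10 and 0.15 in the hippocampus. Becn1, the scaffold also called Beclin 1, had 0.02 and -0.0059 (adjusted p = 0.653 and 0.913).

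Membrane supply and its readers went in both directions. Wipi1, which binds the lipid that Pik3c3 makes, fell in day. It ran from 5.53 to 8.12 CPM in day hippocampus (median 6.50) and from 6.25 to 10.7 CPM at night (median 8.62), and 10 of 16 night libraries lay above the highest day library. Its log2 change was -0.33 ± 0.06 in the hippocampus and -0.31 ± 0.07 in the frontal cortex (SE, adjusted p = 8.85e-05 and 0.000953). Its close relative Wipi2, the form known to recruit the conjugation machinery, had 0.01 in both regions. The lipid transfer gene Atg2b rose by 0.16 ± 0.04 (SE) in the hippocampus, while its relative Atg2a had -0.03. Atg9a, which shares 1832 exon bases with the little-read Gm29253 on its own strand, had 0.0063 and -0.08.

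**Figure D2:**
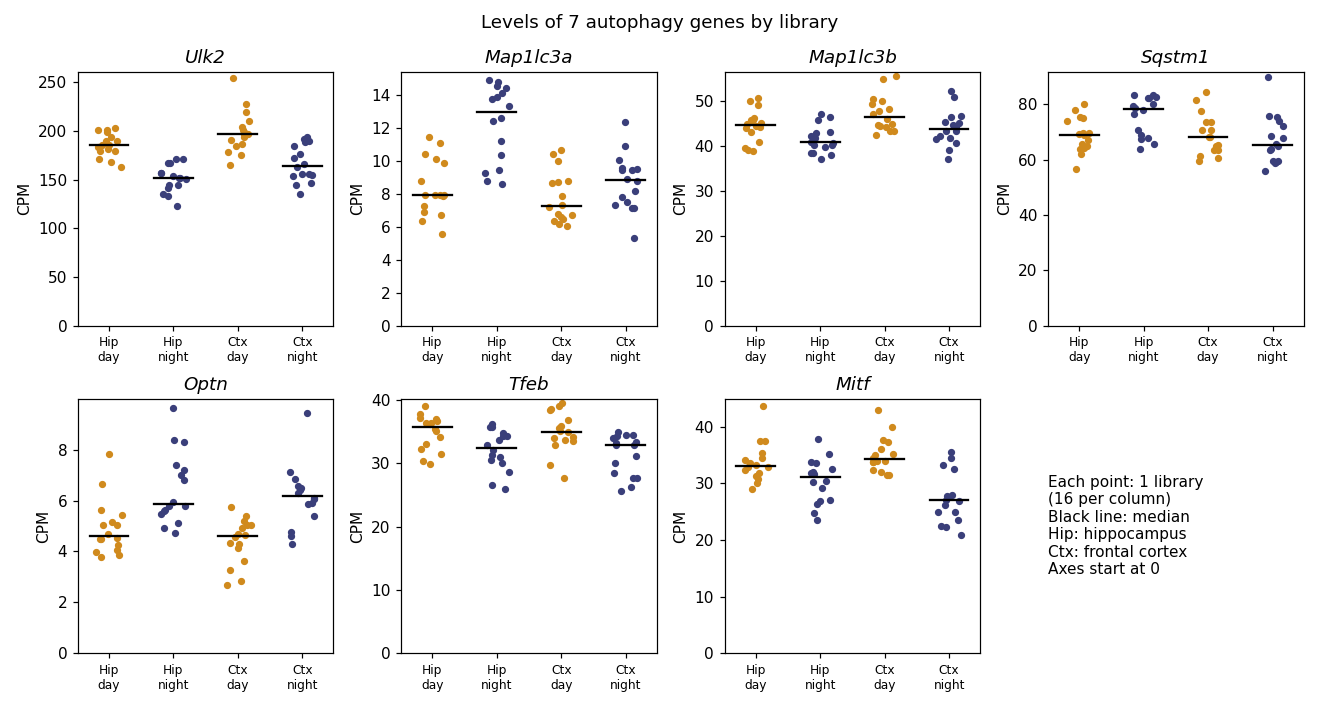
Level in CPM (vertical axes from 0) of 7 members in every library, in columns of hippocampus (Hip) and frontal cortex (Ctx), day (orange) and night (dark blue), 16 libraries per column with the median as a black line. Ulk2 and Mitf sit higher in day, Optn sits lower in day, and in Map1lc3a the night hippocampus column, with a median of 12.98 CPM, stands above the other 3.

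Conjugation had 4 of 16 genes higher and 2 lower in day in each region, though not the same 6 genes. Over all genes 42.2% were called in the hippocampus and 41.8% in the frontal cortex, so this step did not stand out by its count. Atg5, part of the ligase that fixes the tags to the membrane, ran from 16.3 to 23.9 CPM in day hippocampus (median 20.2) and from 13.99 to 19.6 CPM at night (median 17.03). Of its day libraries 9 of 16 lay above every night library, and the log2 change was 0.28 ± 0.05 (SE, adjusted p = 8.80e-06). The frontal cortex had 0.19 ± 0.05 (SE, adjusted p = 0.00635). Atg3, the enzyme that hands the tags over to lipid, rose by 0.20 ± 0.05 and 0.14 ± 0.04 (SE) in hippocampus and frontal cortex. Atg4c, one of 4 proteases that trim and recycle the tags, rose by 0.18 in day hippocampus and by 0.17 in the frontal cortex, and its 3 relatives were not called.

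Atg7, the activating enzyme of both conjugation reactions, went the other way from Atg3 and Atg5. Its frontal cortex libraries ran from 11.7 to 14.8 CPM in day (median 13.1) and from 11.7 to 18.03 CPM at night (median 15.02), and 9 of 16 night libraries lay above the highest day library. The log2 change was -0.19 ± 0.05 (SE, adjusted p = 0.00268). In the hippocampus it was -0.09 ± 0.06 (SE, adjusted p = 0.224). Atg16l1, the scaffold that places the ligase, had 0.04 and -0.03 in hippocampus and frontal cortex. Atg16l2 had the widest interval of the conjugation enzymes in the frontal cortex, with -0.25 ± 0.11 (SE, adjusted p = 0.0739).

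The ubiquitin-like tags divided. Map1lc3a, the LC3A gene (chr2:155276297-155278073, plus strand), ran from 5.55 to 11.46 CPM in day hippocampus (median 7.95) and from 8.63 to 14.9 CPM at night (median 12.98). Of the 16 night libraries 10 lay above every day library, and as many day libraries lay below every night library. The log2 change of -0.51 ± 0.10 (SE, adjusted p = 0.000100) was the largest of the 40 in either region. Cortical Map1lc3a ran from 6.07 to 10.7 CPM in day (median 7.27) and from 5.32 to 12.4 CPM at night (median 8.87), the phases overlapped widely, and the change was -0.17 ± 0.10 (SE, adjusted p = 0.175). By group, night hippocampus had 13.9 ± 1.05 CPM in Ctr1, 12.8 ± 2.32 in Ctr0, 12.4 ± 2.21 in Cogn and 10.1 ± 2.23 in Soci (SD, n = 4 each), while the 4 day hippocampus means lay between 7.96 and 9.12 CPM.

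Map1lc3b, the LC3B gene whose protein is the usual marker of autophagosomes, moved slightly the other way. It ran from 38.9 to 50.7 CPM in day hippocampus (median 44.7) and from 37.1 to 47.2 CPM at night (median 40.8), a log2 change of 0.14 ± 0.04 (SE, adjusted p = 0.00740), with most libraries of the phases overlapping. Its frontal cortex libraries ran from 42.4 to 55.5 CPM in day (median 46.5) and from 37.1 to 52.2 CPM at night (median 43.7), a change of 0.10 ± 0.04 (SE, adjusted p = 0.0803). Gabarapl1 fell in day, with medians of 18.1 CPM in day and 23.3 CPM at night in the hippocampus and log2 changes of -0.26 ± 0.08 and -0.17 ± 0.07 (SE, adjusted p = 0.00517 and 0.0377) in hippocampus and frontal cortex. In the frontal cortex Gabarapl1 kept its call in 6 of 19 alternative fits. With a replicate number left out, it kept that call only without replicate 1. Its relative Gabarapl2 rose by 0.16 ± 0.06 (SE, adjusted p = 0.0358) in the frontal cortex and had 0.00097 in the hippocampus. Gabarap, the most abundant of the tags per kilobase, had 0.09 and 0.16 (adjusted p = 0.170 and 0.0786).

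Among the cargo receptors 2 of 5 rose and 1 fell in day in each region, and these were the same 3 genes. The share called over all genes was 42.2% in the hippocampus and 41.8% in the frontal cortex. Bnip3l, the mitochondrial receptor also called Nix, ran from 59.6 to 83.9 CPM in day hippocampus (median 68.0) and from 44.9 to 68.2 CPM at night (median 60.3). Its log2 change was 0.30 ± 0.05 in the hippocampus and 0.24 ± 0.06 in the frontal cortex (SE, adjusted p = 4.04e-05 and 0.00276). Nbr1, a receptor for ubiquitin-tagged material, rose by 0.18 ± 0.03 and 0.11 ± 0.03 (SE).

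Optn, optineurin, a receptor for damaged mitochondria and bacteria (chr2:5020642-5064051, minus strand), fell. Its cortical libraries ran from 2.69 to 5.75 CPM in day (median 4.62) and from 4.31 to 9.47 CPM at night (median 6.19), with 12 of 16 night libraries above the highest day library. The log2 change there was -0.49 ± 0.10 (SE, adjusted p = 0.000359). In the hippocampus Optn ran from 3.78 to 7.85 CPM in day (median 4.61) and from 4.72 to 9.65 CPM at night (median 5.87), and the change was -0.35 ± 0.11 (SE, adjusted p = 0.00684). By group, Cogn in day hippocampus was the highest of the day means at 5.92 ± 1.62 CPM (SD, n = 4), above the 5.73 ± 1.23 CPM of night Soci in the frontal cortex.

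Sqstm1, whose protein accumulates when autophagy is blocked, was called in neither region. It ran from 56.6 to 80.1 CPM in day hippocampus (median 69.1) and from 63.9 to 83.5 CPM at night (median 78.2), where 6 of 16 night libraries lay above every day library. The log2 change was -0.10 ± 0.05 (SE, adjusted p = 0.0897). Cortical Sqstm1 ran from 59.4 to 84.6 CPM in day (median 68.2) and from 55.9 to 90.1 CPM at night (median 65.3), a change of 0.04 ± 0.06 (SE, adjusted p = 0.652). Calcoco1, a receptor of endoplasmic reticulum and Golgi, had 0.04 and 0.05.

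All 3 transcription factors were higher in day hippocampus, and 2 of 3 in the frontal cortex, beside 23.4% and 20.6% of all genes. Mitf (chr6:97807052-98021349, plus strand) ran in the frontal cortex from 31.5 to 43.1 CPM in day (median 34.2) and from 21.0 to 35.5 CPM at night (median 27.0), and 12 of 16 night libraries lay below the lowest day library. Its log2 change of 0.35 ± 0.06 (SE, adjusted p = 7.12e-05) was the largest rise among the 40 members. In the hippocampus Mitf ran from 29.1 to 43.8 CPM in day (median 33.1) and from 23.6 to 37.9 CPM at night (median 31.1), a smaller change of 0.19 ± 0.06 (SE, adjusted p = 0.0123). The frontal cortex night means lay between 25.7 and 29.5 CPM in the 4 conditions and the day means between 34.5 and 35.9 CPM.

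Tfeb ran from 29.8 to 39.0 CPM in day hippocampus (median 35.8) and from 25.9 to 36.2 CPM at night (median 32.5), a log2 change of 0.15 ± 0.05 (SE, adjusted p = 0.00794). Cortical Tfeb ran from 27.7 to 39.5 CPM in day (median 35.03) and from 25.6 to 35.03 CPM at night (median 32.9), a change of 0.15 ± 0.05 (SE, adjusted p = 0.0159). Of the 16 day libraries of Tfeb, 7 in the hippocampus and 8 in the frontal cortex lay above every night library. Tfe3 rose by 0.13 ± 0.05 (SE, adjusted p = 0.0470) in the hippocampus and had 0.03 in the frontal cortex. The hippocampal calls of all 3 factors were lost without replicate 1 and without replicate 4. Adjusted p-values then were 0.343 and 0.171 for Mitf, 0.137 and 0.247 for Tfeb, and 0.317 and 0.244 for Tfe3. Without replicate 2 Tfeb and Tfe3 were also lost (adjusted p = 0.136 and 0.455), and without replicate 3 Tfe3 was (adjusted p = 0.0749).

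**Figure D3:**
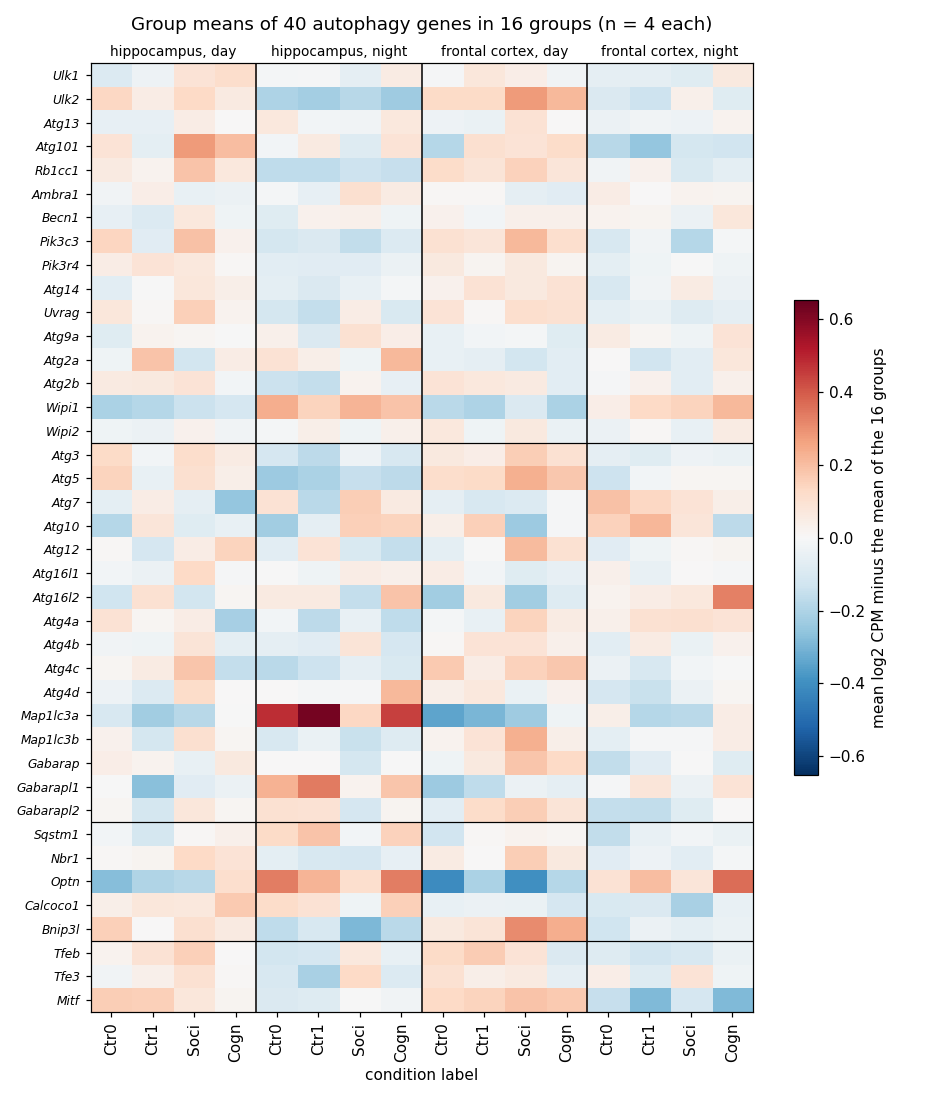
Mean log2 CPM of each of the 40 members (rows) in the 16 groups (columns, n = 4 libraries each), less the mean of that gene over the 16 groups; red is above and blue below that mean. Most cells are pale, the rows of Ulk2, Wipi1, Optn and Mitf are mostly of one colour in day and of the other at night, and Map1lc3a in night hippocampus is the darkest, with 0.62 in Ctr1.

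The direction was followed through the 8 pairs of region and condition, each with 4 day and 4 night libraries. The day mean was the higher one in all 8 pairs for 12 members, among them Ulk2, Rb1cc1, Pik3c3, Uvrag, Atg3, Atg5, Nbr1, Bnip3l and Mitf. It was the lower one in all 8 pairs for 3 members, Wipi1, Map1lc3a and Optn. Among 17140 genes that passed the filter over all libraries, 16.5% were higher and 17.7% lower in all 8 pairs. Ulk2 differed by between 0.22 and 0.33 on the log2 scale in the 8 pairs, a narrow band, while Map1lc3a ran from -0.06 to -0.84.

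Some calls held only with all libraries. Left out in turn, the replicate numbers gave between 8 and 19 called members in the hippocampus, with 8 without replicate 1 and 12 without replicate 2, and between 12 and 21 in the frontal cortex. Calls over all genes fell too, from 6550 of 15527 in the hippocampus to 4319 of 15293 without replicate 1 and 4520 of 15468 without replicate 2. In the frontal cortex all genes went from 6266 calls to between 3941 and 6403. In the hippocampus 7 calls were kept in all 4 of these fits (Atg5, Bnip3l, Map1lc3a, Nbr1, Pik3r4, Ulk2 and Wipi1). In the frontal cortex 11 were kept (Atg4c, Atg7, Bnip3l, Mitf, Nbr1, Optn, Pik3c3, Rb1cc1, Ulk2, Uvrag and Wipi1). The share of all genes that kept a call in all 4 fits was not computed, so these counts have no background. Bnip3l, Nbr1, Ulk2 and Wipi1 were kept in both regions.

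Markers of other cells moved with the phase as well. All 7 border macrophage markers were higher in day hippocampus and 6 of 7 in day frontal cortex, where their sums ran from 221 to 458 CPM in day and from 122 to 314 CPM at night. Astrocyte markers were lower in day, 7 of 8 in each region, oligodendrocyte markers in 8 of 9 and 6 of 9, and neuron markers in 3 of 10 in the hippocampus and 9 of 10 in the frontal cortex. All 8 choroid plexus markers were lower in day hippocampus, and 5 of 7 endothelial markers there and 1 of 7 in the frontal cortex. Choroid plexus markers gave 0 calls in the frontal cortex, where 4 passed the filter. Of the 4 neutrophil and monocyte markers tested, 1 was higher and 1 lower in the hippocampus and 0 were called in the frontal cortex. Microglia markers were higher in day in 7 of 12 and 4 of 12. Genes of the response to dissociation were higher in 5 and lower in 1 of 10 in the hippocampus, and higher in 2 and lower in 3 of 10 in the frontal cortex. No marker had a median of 0 in any of these phases.

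With a marker score added to the fit, the number of autophagy genes called depended on the score. With the border macrophage score 0 members were called in the hippocampus and 2 in the frontal cortex, Mitf and Tfeb, while 8 and 9 members had an unadjusted p below 0.05. Of all genes 747 of 15527 and 1273 of 14975 were still called in those fits, and 2904 and 3686 had an unadjusted p below 0.05. With all 7 scores together 0 members were called in the hippocampus and 5 in the frontal cortex, beside 49 and 1677 of all genes. The neuron score kept 16 of the 20 hippocampal calls, beside 6034 calls over all genes. It gave 4 calls in the frontal cortex, of which Atg7 alone had been called without the score, beside 1830 over all genes. The astrocyte score gave 9 and 8 calls in hippocampus and frontal cortex, beside 3539 and 2777 over all genes, and the oligodendrocyte score 8 and 9, beside 3397 and 3420. The endothelial score gave 16 and 15 (5555 and 6147 over all genes), the choroid plexus score 12 and 14 (4134 and 5482), and the score of neutrophils and monocytes 19 and 20 (6996 and 7200).

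**Figure D4:**
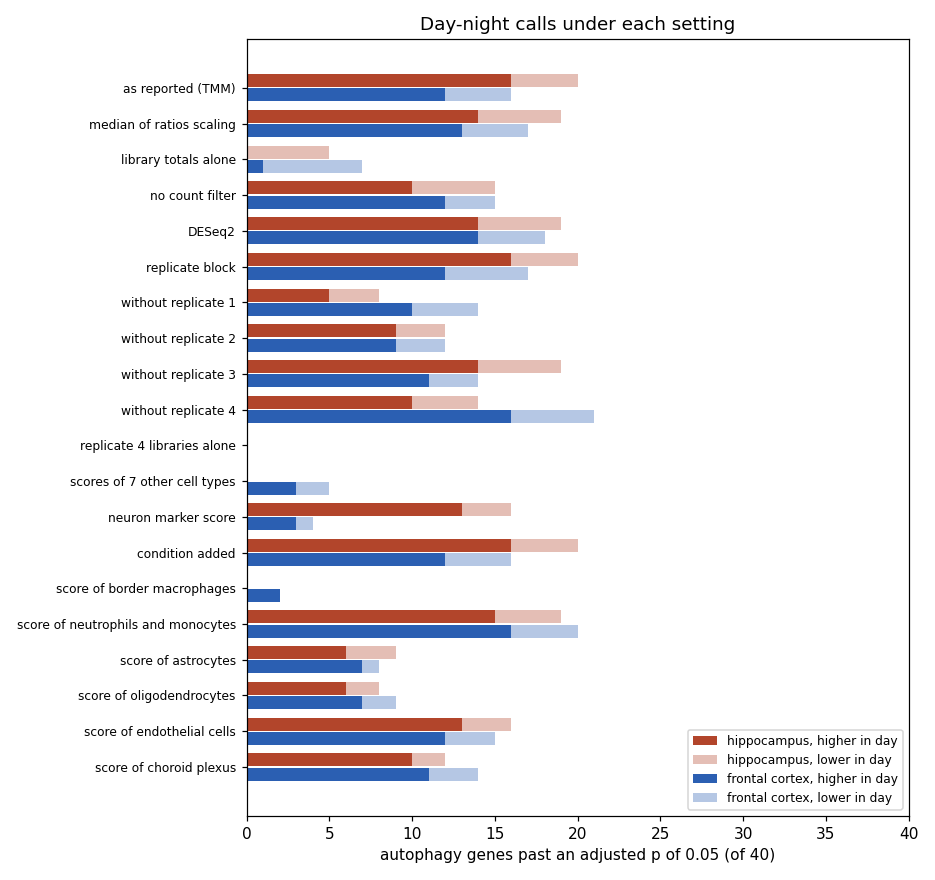
Number of the 40 members with an adjusted p below 0.05 between day and night (horizontal axis) under each setting (rows), for hippocampus (red) and frontal cortex (blue); dark bars are members higher in day, pale bars members lower. The fit as reported has 20 and 16 calls, and those with the border macrophage score have 0 and 2.

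Optn and Mitf in the frontal cortex lost their direction with the neuron score, where Optn went from -0.49 to 0.10 and Mitf from 0.35 to -0.0059 (adjusted p = 0.661 and 0.974). With all 7 scores Optn had 0.15 and Mitf 0.14 there. Map1lc3a in the hippocampus was called with the neuron score at -0.43 (adjusted p = 0.000668) and was not called with the oligodendrocyte score at -0.30 or the border macrophage score at -0.55 (adjusted p = 0.0928 and 0.0628). Ulk2 in the hippocampus kept its call under each single score except that of border macrophages, where it had 0.18 (adjusted p = 0.103).

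The 4 conditions were compared within each region, averaged over day and night. Of the 40 members 0 passed in either region, as did 0.00% of all genes in each, 0 had an unadjusted p below 0.05, and DESeq2 also called 0. Over all genes, 1090 of 16826 in the hippocampus and 1094 of 16238 in the frontal cortex had an unadjusted p below 0.05. The lowest p-values in the hippocampus were those of Tfe3, Atg7 and Uvrag (edgeR, adjusted p = 0.668 for each). Tfe3 had 98.6 ± 4.52 CPM in Soci and between 86.2 and 88.7 CPM in the other conditions (n = 8 each). Those of the frontal cortex were Atg12, Tfe3 and Ulk2 (edgeR, adjusted p = 0.720 for each). Ulk2 had 196 ± 32.02 CPM in Soci and between 175 and 184 CPM in the others (SD, n = 8). The condition means of a member spanned between 0.02 and 0.26 log2 units in the hippocampus and up to 0.27 in the frontal cortex. With library totals as the only scaling, 20 members were called among hippocampal conditions, beside 3862 of 16826 genes in all.

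An interaction term tested if the conditions differed in their day-night change. In the hippocampus 0 members and 0.00% of all genes passed, with 2 members at an unadjusted p below 0.05, and DESeq2 called 0 members. Among frontal cortex libraries 0 members passed beside 0.00616% of all genes, with 1 at an unadjusted p below 0.05 and 0 called by DESeq2. Over all genes, 695 of 16826 in the hippocampus and 603 of 16238 in the frontal cortex had an unadjusted p below 0.05. Atg7 had the lowest p in the hippocampus (edgeR, adjusted p = 0.608). Its day mean was above its night mean by 0.23 on the log2 scale in Ctr1 and below it by 0.31, 0.22 and 0.16 in Cogn, Soci and Ctr0. Ambra1, a Becn1 partner, and Atg12, the tag joined to Atg5, followed in p, with Ctr1 again opposite in sign to the others. Pik3c3 led in the frontal cortex (edgeR, adjusted p = 1), with 0.40 in Soci and between 0.10 and 0.20 in the other conditions.

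Between the regions 5 of 40 members differed, 12.5% beside 16.6% of all genes (10.4% higher and 6.17% lower in the hippocampus). Map1lc3a was higher in the hippocampus by 0.30 ± 0.07 on the log2 scale (SE, adjusted p = 0.00140, n = 32 per region). Its night medians were 12.98 CPM in the hippocampus and 8.87 CPM in the frontal cortex, and its day medians 7.95 and 7.27 CPM. Calcoco1 was higher in the hippocampus by 0.17 ± 0.04, while Atg5, Ulk2 and Map1lc3b were lower by 0.13, 0.12 and 0.09 (adjusted p = 0.00471, 0.0102 and 0.0327). Left out in turn, replicate 2 ended the calls of Map1lc3a, Calcoco1 and Map1lc3b (adjusted p = 0.0934, 0.121 and 0.0705), replicate 3 those of Atg5, Ulk2 and Map1lc3b (adjusted p = 0.0511, 0.165 and 0.131) and replicate 4 those of Calcoco1 and Map1lc3b (adjusted p = 0.103 and 0.0617). With library totals as the only scaling Calcoco1 was not called (adjusted p = 0.343). Choroid plexus markers, all 8 of them, were higher in the hippocampus, with a median log2 difference of 2.94, as were 2 of 9 oligodendrocyte markers and 1 of 8 astrocyte markers. Lower in the hippocampus were 5 of 6 neutrophil and monocyte markers, 3 of 7 of border macrophages, 4 of 10 of neurons, 3 of 8 of astrocytes and 2 of 12 of microglia, and 0 of 7 endothelial markers differed. The part of these markers in the differences between regions was not tested.

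The day-night change itself was then compared between the regions. Of the 40 members 0 passed, beside 1.19% of all genes in edgeR, 0.330% with a higher and 0.859% with a lower change in the hippocampus. An unadjusted p below 0.05 was seen for 4 members and for 1587 of 16069 genes, and DESeq2 called 0 members. Map1lc3a came first, with a change lower by 0.39 ± 0.14 (SE) in the hippocampus than in the frontal cortex and an interval from -0.66 to -0.11 (adjusted p = 0.209). Gabarapl2, Mitf and Sqstm1 followed with differences of -0.20, -0.20 and -0.18. Without replicate 3, 1 member passed, Map1lc3a (adjusted p = 0.0421), beside 224 of 16102 genes in all. So a call in one region alone, as for Atg7 or Tfe3, was not shown to differ between the regions.

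Another 67 genes of the pathway, in 4 lists also chosen with earlier results of these data known, gave the setting. In the hippocampus 25 of 66 tested rose in day and 8 fell, and in the frontal cortex 23 of 65 rose and 13 fell, beside the 23.4% and 18.8% of all genes in the hippocampus and the 20.6% and 21.3% in the frontal cortex given above. Control by mTORC1 and AMPK, the nutrient and energy sensors, had 8 of 25 higher and 4 lower in the hippocampus, and 8 of 24 higher and 5 lower in the frontal cortex. Its largest changes were larger than those of any member. The genes behind them were not followed singly through the alternative fits, and the part of other cells in their changes was not tested. Prkaa2, a catalytic subunit of AMPK, fell by 1.26 ± 0.15 (SE) on the log2 scale in the hippocampus and by 0.56 ± 0.15 in the frontal cortex. Rragd, a GTPase that recruits mTORC1 to lysosomes, fell by 1.11 and 1.13. Its relative Rragb fell by 1.10 ± 0.21 (SE) in the hippocampus and did not pass the filter on low counts in the frontal cortex. Ddit4, an inhibitor of mTORC1 that glucocorticoids induce, rose by 1.00 ± 0.37 (SE) in the frontal cortex and by 0.92 ± 0.35 in the hippocampus (adjusted p = 0.0288 and 0.0335).

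The other lists held changes of the size seen in the members. Selective autophagy had 10 of 16 genes higher and 1 lower in the hippocampus and 8 higher and 2 lower in the frontal cortex. Sec62, a receptor of the endoplasmic reticulum, rose by 0.38 and 0.39 in hippocampus and frontal cortex, and Wdfy3, the scaffold called Alfy, rose by 0.36 and 0.29. Tax1bp1, a relative of Calcoco1, rose by 0.29 and 0.33, and Ccpg1, another receptor of the endoplasmic reticulum, by 0.31 and 0.32. Genes of initiation and membrane growth had 4 of 11 higher and 1 lower in the hippocampus. The called genes were led there by Wdr45 with 0.36, Sh3glb1 with 0.26 and Nrbf2 with 0.21. In the frontal cortex 2 were higher and 2 lower, led by Tfec with 0.43, Ulk3 with -0.27 and Rab33b with -0.24. Sh3glb1 was also called in the frontal cortex at 0.16, and Rab33b in the hippocampus at -0.14. Tfec had 0.43 and Ulk3 -0.16 in the hippocampus, not called (edgeR, adjusted p = 0.0589 and 0.0574). Wdr45 and Nrbf2 had 0.02 and 0.10 in the frontal cortex and were not called. Genes of fusion with the lysosome had 3 of 14 higher and 2 lower in the hippocampus and 5 higher and 4 lower in the frontal cortex. Of these, Snap29, a SNARE protein, rose by 0.25 and 0.26 and Rab7 by 0.24 and 0.26 in hippocampus and frontal cortex. The tether Vps41 had 0.21 and 0.09 and Tecpr1 had -0.19 and -0.23, each called in both regions. Between the regions 3 of the 66 were higher and 8 lower in the hippocampus, beside 10.4% and 6.17% of all genes. In their day-night change 0 differed, beside 1.19% of all genes.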

How the data were processed

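The authors sequenced total RNA depleted of ribosomal RNA from magnetically sorted microglia, and per the labels' processing notes used STAR 2.7.3a and featureCounts of Subread 2.0.0 on GRCm38.p5. The deposited values are raw counts per gene. The treatment of reads matching several positions is not given in the sources used here. Genes inside introns had a median of 1076 counts per kb on the host's strand (1827 genes) and 1.38 on the opposite strand (1364 genes), so counting used strand.

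Groups came from the labels. Symbols were taken from GENCODE M21 for 49412 genes, and 259 had none. No libraries held identical values, and the 96 replicate pairs differed beyond sampling noise, with a chi-square of at least 8.26 per degree of freedom. The whole table was fitted with the quasi-likelihood test of edgeR 4.0.16 in R 4.3.3, with TMM scaling, filterByExpr (minimum count 10) and Benjamini-Hochberg adjustment over all genes tested at a threshold of 0.05. Day and night were compared within a region (32 libraries, conditions pooled). Conditions and their interaction were tested over 8 group means, and regions and theirs over 64 libraries. The SE is the log2 change divided by the root of F. Levels are CPM after TMM, log2 CPM used a prior count of 2, and levels per kb used merged exon length. Promoters came from RefSeq.

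All called members were counted. Named with statistics were up to 14 called members by size in each day-night comparison, up to 10 between regions, the 3 of lowest p in tests of conditions, up to 3 called genes per other list, and the 3 highest and lowest per kb. Values by library were given for the largest called member of each step and for Map1lc3b, Sqstm1 and Tfeb. Those named beyond this were chosen for contrast after their values were seen. Alternatives were median of ratios scaling, library totals alone, no filter, DESeq2 1.42.0, a replicate block, leaving out each replicate number, replicate 4 alone, and marker scores or condition in the fit. Single scores other than the neuron score were added after seeing the data. The fits were tested on simulated data. Of 200 genes given a 2-fold change, 199 and 197 were recovered between day and night in hippocampus and frontal cortex. Among conditions it was 193 and 183, and for their interaction with phase 149 and 138. Between regions it was 200, and for the day-night change between regions 186. Changes as small as those of the members were not simulated. The members and lists were chosen with earlier results of these data known.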

Additional observations from a re-analysis of the deposited data

Results flagged for a closer look

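Among 128 sets of 4 libraries, for total counts and the 7 members given by library, 14 held a library far from its 3 companions by Dixon's criterion, where chance flags about 1 in 20, or 6.4 of 128. Total counts stood apart in replicate 4 of hippocampus Day Cogn (62.2 M, others 17.4 to 20.1 M), Night Cogn (65.7 M, others 15.7 to 17.9 M) and Night Soci (84.5 M, others 13.7 to 18.5 M), and in the frontal cortex in Day Ctr0 replicate 1 (24.5 M, others 11.2 to 13.04 M) and Night Ctr0 replicate 2 (26.3 M, others 13.4 to 15.3 M).

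Ulk2 was low in frontal cortex Day Ctr0 replicate 1, at 165 CPM with the others between 197 and 200.5, which was also the deepest library of that group. It was high in Night Ctr0 replicate 3 of that region, at 188 CPM with the others between 155 and 156. Map1lc3a was high in frontal cortex Day Ctr0 replicate 2 (8.76 CPM, others 6.38 to 6.72), in Day Soci replicate 2 (10.7 CPM, others 6.49 to 7.20) and in hippocampus Night Soci replicate 2 (13.4 CPM, others 8.63 to 9.43). Optn was high in frontal cortex Night Cogn replicate 1, at 9.47 CPM with the others between 6.05 and 6.43. Map1lc3b was low in frontal cortex Night Ctr1 replicate 1, at 40.6 CPM with the others between 44.6 and 45.2. Sqstm1 was high in hippocampus Day Cogn replicate 2 (77.9 CPM, others 69.1 to 69.7) and low in Night Ctr1 replicate 3 (69.1 CPM, others 82.4 to 83.5).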

How the results depend on the processing

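For the counts of called members between day and night, median of ratios scaling, no count filter, DESeq2 and condition as a term stayed within 1.5 times. The others changed the hippocampal count of 20 to 5 with library totals alone, 0 among replicate 4 libraries alone, 0 with 7 marker scores, 0 with border macrophages, 9 with astrocytes, 8 with oligodendrocytes and 12 with choroid plexus, and to between 8 and 19 without one replicate number. In the frontal cortex the count of 16 became 7, 0, 5, 2, 8 and 9 under the same settings in that order up to oligodendrocytes, 4 with the neuron score, and between 12 and 21 without one replicate number. In replicate 4 libraries alone, all genes gave 118 calls of 16029 in the hippocampus and 0 of 15115 in the frontal cortex. Among hippocampal conditions 20 were called with library totals alone, where 0 had been. Between regions the count of 5 became 0 in replicate 4 alone and between 2 and 9 without one replicate number. All genes there gave 0 calls of 15911 in replicate 4 alone and between 1322 and 3518 without one replicate number. The day-night change between regions gave 0 to 1 called members. For the 4 lists of other pathway genes, 93 of the day-night counts under alternatives stayed within 1.5 times and 59 did not.

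Among the results followed one by one through every alternative, signs turned in 16 cases, apart from Atg14, Atg2b, Pik3r4 and Tfe3, which also changed sign in the hippocampus with library totals alone. With 7 scores Gabarapl1 had 0.11 in the hippocampus and 0.19 in the frontal cortex, where Optn had 0.15 and Map1lc3a 0.52. With the neuron score in the frontal cortex Optn had 0.10, Mitf -0.0059, Gabarapl1 0.10 and Map1lc3a 0.29, and with oligodendrocytes Map1lc3a had 0.020. With library totals alone Map1lc3b had -0.013 and Tfeb -0.0079 in the hippocampus and Sqstm1 -0.038 in the frontal cortex. In that region Sqstm1 also had -0.011 without replicate 1, -0.17 in replicate 4 alone and -0.038 with border macrophages, and Map1lc3b -0.055 in replicate 4 alone. The cause was not tested.

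The labels tie nothing but a number to same-numbered libraries, and not every pair of them correlated above 0.1: 3 of 16 day-night pairs in the hippocampus and 6 of 16 in the frontal cortex did, 25 of 48 and 21 of 48 pairs between conditions, with r up to 0.69 and 0.46, and 11 of 32 between regions. A library correlated best with its own number in 3, 5, 20, 14 and 12 of these. Each had the 4 libraries of the other group to match, and no chance rate was set beside these counts. They cannot tell if same-numbered libraries share an animal or a batch. As the labels give no such tie, the numbers were not taken as pairing. With the number as a replicate block 20 and 17 members were called between day and night and 6 between regions, 0 among conditions and 0 in each interaction. The lowest count of a member in any library was 22, so no value here rests on a count of 0.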
